A study of Mus musculus with 2 samples.

Results

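The 1962 sites described here are motif positions with a deposited m6A fraction that lie more than 3000 nt from the start of their transcript, in mouse retinal organoids. They were taken from the positions of replicate 2 with a coverage of 20 reads or more, keeping for each named gene the 1 transcript with the most such positions beyond 3000. They lay on 761 genes, which is 19.4% of the 3919 named genes with a site of 20 reads, and made up 13.3% of the 14734 sites that remained with 1 transcript per gene. The other 12772 sites, at or below position 3000, served for comparison. Another 147 sites beyond 3000 nt were on a further transcript of the same gene, and 15 had no gene name, so both were left out. The fraction modified played no part in the choice, so the sites include some at a fraction of 0, namely 81 in replicate 2 and 170 of those listed in replicate 1. Where replicate 1 listed the same transcript and position, its value was set beside that of replicate 2, which was the case for 1308 sites (66.7%).

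Both libraries came from wild-type organoids of the Rx:GFP line, mouse stem cells in which green fluorescent protein reports the eye-field gene Rx (Rax), differentiated for 6 days in the presence of AGN (0.1 µM) in a medium with serum replacement. They form 1 group with n = 2, so no condition was compared, and each comparison below is between positions within the libraries. Poly(A) RNA was sequenced as native RNA with the RNA002 chemistry. The labels do not say that the libraries came from separate cultures, so the spread between them may be technical.

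N6-methyladenosine is the most common internal modification of messenger RNA. It is placed during transcription by a complex with METTL3 as its catalytic subunit, at adenosines in the DRACH context, is enriched near stop codons and in long exons, and is bound by reader proteins that affect splicing, export, translation and decay. Long messenger RNAs, with long coding regions or long 3′ ends, encode much of the cytoskeletal, chromatin and RNA-processing machinery of a growing neuroepithelium. Native reads start at the poly(A) end, so a position far from that end is reached only by reads that run the whole distance.

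All listed positions fell on 4 motifs of 5 bases, written here 5′ to 3′ in DNA letters, and they matter because the fraction is compared motif by motif. In each of them the adenosine of the DRACH core is the third base, which is followed by C. The motif GGACA ends in A, the motif GGACC ends in C, and the motif GGACT ends in T. The motif AGACT differs from the last of these only in its first base.

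The median position of the sites was 3868 (interquartile range 3337 to 4787), and the highest position was 14180. There were 1084 sites from 3001 to 4000, 451 to 5000, 302 to 7000 and 125 beyond. Most genes had few: 305 genes carried 1 site, 344 carried 2 to 4 and 112 carried 5 or more. Neighbouring sites on a transcript were a median of 190 nt apart (interquartile range 80 to 412, 1201 neighbouring pairs).

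Median coverage of these sites was 30 reads in replicate 2 (interquartile range 24 to 46), against 38 (26 to 66) at positions up to 3000. In replicate 1 it was 12 reads (9 to 19) where listed, against 18 (11 to 34), and only 303 of the sites (15.4%) reached 20 reads there, against 34.9% of the others. Since no position under 5 reads was listed and the denominator of the fraction is not stated, single fractions are given without an interval. Within a transcript the order was the other way round. On 443 transcripts with sites on both sides, the median coverage beyond 3000 nt was higher on 363 (81.9%) in replicate 2, and the ratio of beyond to up to over all 443 had a median of 1.23 (interquartile range 1.06 to 1.5). In replicate 1 it was higher on 258 of 316 transcripts (81.6%), with a median ratio of 1.45 over the 316. These values describe the sites as chosen: both sides had to reach 20 reads in replicate 2, and the remaining 318 transcripts, with no such site up to position 3000, do not enter.

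The 12 genes with the most sites, ties taken by summed coverage in replicate 2, have varied roles: Aars and Arhgap29 carried 13 sites each, Scaf8 12, Igfbp5, Ptprf, Prrc2a and Acaca 11 each, Adnp and Kif1a 10 each, and Ttc3, Prpf8 and Ipo9 9 each, as did Nup153, Anapc1, Crb2, Ubn1, Map3k4 and 1700017B05Rik with lower summed coverage. Coverage separated Igfbp5 from the rest, with 340 to 788 reads per site in replicate 2, where no site of the other 11 genes exceeded 89. Low and high fractions occurred within most of these genes, while Prpf8 reached at most 0.533 in replicate 1 and 0.476 in replicate 2. Over all 112 genes with 5 or more sites, the fraction spanned a median range of 0.785 within a gene in replicate 2, from 0.268 in Cltc to 1 in Irs4, and 0.758 in replicate 1 over 56 genes with 5 or more listed there.

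**Figure D1:**
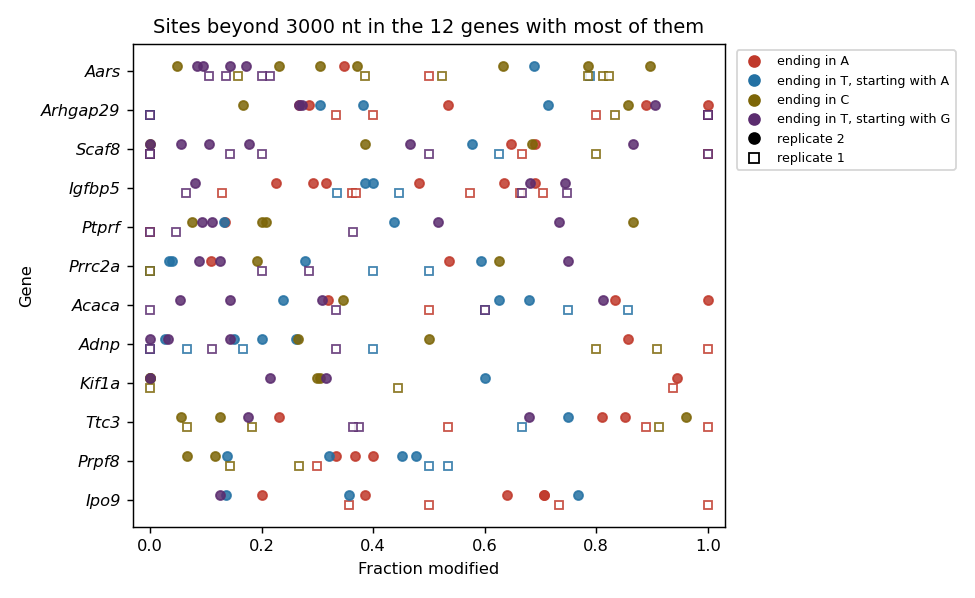
Fraction modified (x axis) at the sites beyond 3000 nt of the 12 genes with the most of them, ties taken by summed coverage in replicate 2 (y axis), filled circles for replicate 2 and open squares for replicate 1, coloured by motif. In Igfbp5 the sites of both replicates run from below 0.1 to about 0.75, and in Acaca from 0.0526 to 1 in replicate 2.

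Igfbp5 encodes a secreted binding protein of insulin-like growth factors (chromosome 1, 72897091 to 72914043, gene coordinates here and below as deposited; transcript ENSMUST00000027377.8). Its 11 sites ran from position 3058 to 5045, and all were listed in replicate 1 with 84 to 274 reads. Their mean fraction was 0.460 in replicate 1 and 0.448 in replicate 2, or 0.454 ± 0.00853 (SD, n = 2), and none of them differed by more than 0.0955 between replicates.

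The 3 highest Igfbp5 sites beyond 3000 were 2 GGACT and 1 GGACA. The GGACT at 3559 had fractions of 0.667 in replicate 1 and 0.744 in replicate 2, the GGACT at 3873 had 0.748 and 0.680, and the GGACA at 3058 had 0.705 and 0.690. A further GGACT, at 5045, was the lowest beyond 3000 with 0.0638 and 0.0803 over 274 and 788 reads. The same motif thus stood at both ends of the range beyond 3000 within 1 transcript, in both replicates. The 6 GGACA sites were spread as well, from 0.129 to 0.705 in replicate 1 and from 0.225 to 0.690 in replicate 2, the lowest at position 3605. Close to it, at 3637, another GGACA had 0.573 and 0.483. Upstream of position 3000 the transcript held 6 sites over 28 to 41 and 133 to 234 reads, and its 3 GGACA sites there had mean fractions of 0.796 and 0.852, above the means of 0.467 and 0.440 of the 6 beyond. GGACT went the other way, as its 1 site up to 3000 had 0 and 0.0504 and the 3 beyond had means of 0.493 and 0.502. AGACT had 0.690 and 0.696 at its 1 site up to 3000 and lower means of 0.391 and 0.393 at the 2 beyond.

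**Figure D2:**
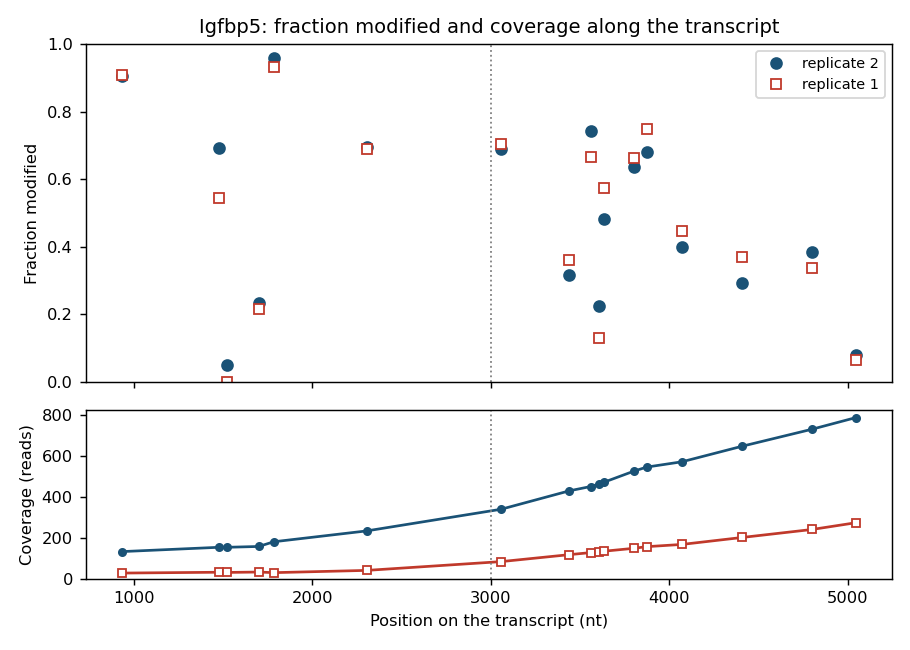
Upper panel, fraction modified at the 17 sites of Igfbp5 by position on the transcript in nt; lower panel, coverage in reads; filled circles are replicate 2, open squares replicate 1, and the dotted line marks position 3000. The last site, at 5045, is low in both replicates (0.0638 and 0.0803) although coverage is highest there, with 274 and 788 reads.

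Aars, the gene of alanyl-tRNA synthetase (chromosome 8, 111759776 to 111784296; transcript ENSMUST00000034441.7), had a mean of 0.411 ± 0.0593 (SD, n = 2) over the 12 sites listed in both, with 21 to 26 reads in replicate 1. Coverage fell along this transcript: it was 69 and 61 reads at 3401 and 3644 in replicate 2, and 36 to 39 reads at the 11 sites from 4829 to 5638. Neighbouring GGACC sites were far apart in fraction, with 0.385 and 0.0476 at 5030 and 0.812 and 0.897 at 5053. Ipo9, an importin that carries proteins into the nucleus (chromosome 1, 135310050 to 135358237), had a fall in coverage of the same kind, from 63 reads at 4062 to 25 at 4552 in replicate 2.

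Acaca, which encodes acetyl-CoA carboxylase of fatty acid synthesis (chromosome 11, 84020498 to 84292477; transcript ENSMUST00000103201.7), carried all 11 of its sites between 7455 and 9432 and none of 20 reads up to 3000. The GGACT at 7851 had 0.6 and 0.812, and the GGACT at 8954 had 0 and 0.143, over 6 and 9 reads in replicate 1. At that depth the replicate 1 values are coarse. Ttc3, a ubiquitin ligase gene (chromosome 16, 94171477 to 94270202; transcript ENSMUST00000117648.7), had all 9 sites listed in both, with a mean of 0.535 ± 0.0275 (SD, n = 2). Its GGACC at 5016 had 0.913 over 26 reads and 0.961 over 58, while the GGACC at 4680 had 0.0667 over 19 and 0.0556 over 44. These sites of the same motif were ordered alike in both replicates.

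Adnp, a homeobox gene of the nervous system (chromosome 2, 168022906 to 168049032; transcript ENSMUST00000088001.5), held 10 sites beyond 3000 and 10 up to it. The last 2 were opposite: the GGACA at 4497 had 1 and 0.857, and the GGACT at 4569 had 0 in both replicates over 18 and 46 reads. Both GGACC sites of this group differed widely between replicates, with 0.909 and 0.5 at 3691 and 0.8 and 0.265 at 4304, each over 16 reads in replicate 1. Kif1a, a kinesin motor of axonal transport (chromosome 1, 92943186 to 93029673), had 3 of 10 sites listed in replicate 1. Among them the GGACA at 7943 had 0.938 and 0.944, the highest of that transcript in both.

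Ptprf, a receptor-type tyrosine phosphatase (chromosome 4, 118065410 to 118148602; transcript ENSMUST00000049074.12), carried sites from 3699 to 7300 with 21 to 62 reads. Its last site, a GGACT, was low in both, with 0.0455 over 27 reads and 0.093 over 62. Prrc2a, which encodes a proline-rich RNA-binding protein (chromosome 17, 35368052 to 35383873), ranged from 0.0333 to 0.75 in replicate 2, and its 6 sites listed in replicate 1 had at most 11 reads there. Arhgap29, the gene of a GTPase-activating protein (chromosome 3, 121746190 to 121810402), and Scaf8, which encodes a factor bound to the tail of RNA polymerase II (chromosome 17, 3165247 to 3249134), had means of 0.560 ± 0.0261 and 0.405 ± 0.0621 (each SD, n = 2), with 7 to 12 reads per site in replicate 1. At these 3 genes the single values of replicate 1 rest on at most 12 reads. Single sites could differ widely, with 1 and 0.267 at 3930 of Arhgap29 and 0.8 and 0.385 at 3124 of Scaf8. Others did not, with 1 in both at 4079 of Arhgap29.

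The members were then grouped by role with 5 lists, all drawn up with earlier results known. The first 4 were filled with genes of long transcripts, so nothing is read from their shares of genes with a site beyond 3000, which was 19.4% over all named genes. Of 25 genes of the cytoskeleton and cell junctions, 10 had a site of 20 reads and all 10 had one beyond 3000, with 42 sites and a median fraction of 0.284 in replicate 2, beside 0.333 over all sites beyond 3000. At the 33 sites listed in both, the medians were 0.222 in replicate 1 and 0.283 in replicate 2. The list also held Cltc, a gene of coated vesicles, with 6 of the 42 sites and a median of 0.135 in replicate 2. Myh10, the non-muscle myosin heavy chain IIB (chromosome 11, 68582385 to 68707458), carried 8, from 5600 to 7515. Its GGACA at 7257 had 0.714 and 0.9, and its GGACC at 7515 had 0.111 and 0.167.

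Cltc, the clathrin heavy chain of coated vesicles (chromosome 11, 86585177 to 86648391, transcript ENSMUST00000103186.10), was low at nearly all its sites beyond 3000. From 4096 to 6003 its fractions were 0 to 0.174 in replicate 1 at the 4 sites listed and 0.0566 to 0.283 in replicate 2 at 5 sites. The exception among these was the GGACC at 3228, with 0.667 over 19 reads and 0.325 over 55. The transcript also held 3 sites up to 3000, where fractions were higher in replicate 2 at the motifs that could be paired. The difference in mean fraction there, beyond minus up to 3000, was -0.542 at GGACC and -0.1195 at AGACT. Cdh2, which encodes N-cadherin of neuroepithelial junctions (chromosome 18, 16721934 to 16942303; transcript ENSMUST00000025166.13), had 5 sites within 100 nt, from 3501 to 3600. Of these, 4 were low in both replicates, between 0.111 and 0.158 in replicate 1 and between 0.0357 and 0.128 in replicate 2. The GGACA at 3600 had 0.842 and 0.837 over 25 and 76 reads, whereas the GGACA at 3549 had 0.158 and 0.0727. Flna, a filamin that crosslinks actin, had 7 sites at 22 to 34 reads. Map1b, a microtubule-associated protein of growing axons (chromosome 13, 99557954 to 99653048), had 3 sites, the first at 9575, with 0.714 and 0.679 at the GGACT at 10816 and 0.182 and 0.109 at the AGACT at 11366.

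Of 21 genes of RNA processing, decay and translation, 12 had a site of 20 reads and 11 had one beyond 3000, with 36 sites and a median fraction of 0.362 in replicate 2. At the 25 sites listed in both, replicate 1 had a median fraction of 0.400 and replicate 2 one of 0.375. Prpf8, the scaffold of the spliceosome's catalytic core (chromosome 11, 75377642 to 75400275; transcript ENSMUST00000102510.7), had 9 sites and none above 0.476 in replicate 2. Its deepest site, the GGACC at 7077, had 0.267 over 26 reads and 0.116 over 67. Snrnp200, the helicase that unwinds U4 and U6 (chromosome 2, 127050306 to 127082371), had 3 GGACA sites, with 0.833 and 0.703 at 3782, 0.875 and 0.75 at 4292, and 0.588 and 0.643 at 4394. The medians of this motif beyond 3000 were 0.710 and 0.615. The GGACC of Snrnp200 at 4004, listed only in replicate 2, had 0.0513. Srrm2, a large serine- and arginine-rich splicing protein, had 4 GGACA sites that ran from 0.357 to 0.969 in replicate 2. Eif4g2, a translation initiation factor (chromosome 7, 110666957 to 110682237; transcript ENSMUST00000162415.8), had 0.852 and 0.807 at the GGACA at 4384 and 0.294 and 0.390 at the AGACT at 4473, over 43 to 45 and 116 reads.

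Of 34 chromatin and transcription regulators, 24 were listed in replicate 2, but only 8 had a site of 20 reads. All 8 had one beyond 3000, with 19 sites and a median coverage of 29 reads. The median fraction over all 19 was 0.357 in replicate 2. At the 12 sites listed in both, median fractions of 0.259 and 0.194 were measured in replicates 1 and 2. Hcfc1, a chromatin-bound cell-cycle cofactor (chromosome X, 72986398 to 73009963), led with 6 sites, from 6777 to 8026. Its 3 GGACA sites had 0.75 and 0.357 at 6777, 0.429 and 0.619 at 7866, and 0.143 and 0.526 at 8026, with 9 to 11 reads in replicate 1. Chd4, a remodelling ATPase, had 0.375 and 0.419 at the GGACA at 5621. The GGACC sites of Smarca4, the BRG1 ATPase, at 5084 and 5326 had 0.375 and 0.172, and 0 and 0.111.

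Of 31 genes of matrix, adhesion and guidance, 5 had a site of 20 reads, and all 5 had one beyond 3000, with 36 sites, of which Igfbp5 and Ptprf held 22, and a median fraction of 0.393 in replicate 2. At the 21 sites listed in both, the medians were 0.444 and 0.399. Col18a1, a basement membrane collagen (chromosome 10, 76888012 to 77002382), had 6 sites, with 0.615 over 20 reads and 0.516 over 49 at its last, the GGACA at 4978. Of 31 neural and eye developmental regulators, 12 had a site of 20 reads and 4 of these (33.3%) had one beyond 3000, beside 19.4% of all named genes. This list too was drawn up with earlier results known, and it is small, so nothing is read from its share either. Its 17 sites had a median fraction of 0.256 in replicate 2. At the 16 sites listed in both, the medians were 0.188 and 0.237. Sox11, a transcription factor of neural progenitors (chromosome 12, 27384263 to 27392573; transcript ENSMUST00000079063.6), had 6. Its GGACA at 6242 had 0.7 and 0.862, and its GGACA at 6668 had 0.0769 and 0.125, so the pair stood apart in both replicates. Sall1, a zinc-finger repressor (chromosome 8, 89753863 to 89770790), had 8 sites with 6 to 16 reads in replicate 1, the GGACA at 3198 having 1 in both. Sox4 had 2 low sites, with 0.188 and 0.167 at 3042 and 0.0625 and 0.0976 at 3445. Zeb1 had 1 site, with 0 over 9 reads and 0.217 over 27. The differences between the lists were not tested.

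The main comparison asked whether the fraction at each motif differed beyond position 3000. With the sites as chosen, it did not by more than the spread between replicates at the 3 motifs that begin with G, and by slightly more at AGACT. Beyond 3000, GGACA had a median fraction of 0.710 in replicate 1 (482 sites) and 0.615 in replicate 2 (687 sites), and it had 0.706 (3645) and 0.667 (4563) up to it. The difference, beyond minus up to, was 0.0042 in replicate 1 and -0.0513 in replicate 2, a mean of -0.0236 ± 0.0392 (SD, n = 2). The replicates thus disagreed in sign. They did not under some alternatives: with 50 or more reads in replicate 2 the GGACA difference was -0.0239 and -0.0207 (mean -0.0223 ± 0.00223, SD, n = 2), and with all transcripts it was -0.0137 and -0.054 (mean -0.0338 ± 0.0285, SD, n = 2), beyond the spread in each case. With a limit of 4000 it was -0.0411 and -0.0981 (mean -0.0696 ± 0.0403, SD, n = 2), with a limit of 2000 the replicates again disagreed in sign (0.0054 and -0.0351), and without a coverage minimum it was 0 in both. That last setting admits positions of 5 reads, where fractions are coarse and medians can coincide.

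At AGACT the medians were 0.297 and 0.273 beyond 3000 and 0.250 and 0.261 up to it. Beyond minus up to, this is 0.0471 in replicate 1 and 0.0118 in replicate 2, a mean of 0.0294 ± 0.0249 (SD, n = 2). This motif alone had the same sign in both replicates, and the exact paired permutation test over the replicates gave p = 0.5, the smallest value that n = 2 allows. At GGACC the medians were 0.286 and 0.222 beyond, against 0.237 and 0.231, a mean difference of 0.0202 ± 0.0407 (SD, n = 2). At GGACT they were 0.222 and 0.25 beyond, against 0.25 and 0.222, with differences of -0.0278 and 0.0278 that cancelled. The same exact test gave p = 1 for each of the 3 motifs that begin with G.

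The GGACA value moved further when sites were limited to 20 or more reads in both replicates; this left 100 GGACA sites beyond 3000 and 1731 up to it, a different set of sites as well as a deeper one. The difference at GGACA was then -0.102 in replicate 1 and -0.0749 in replicate 2, a mean of -0.0882 ± 0.0189 (SD, n = 2; exact paired permutation test, p = 0.5). At AGACT the difference was then 0 and 0.0306, with 55 sites beyond 3000. Over all sites listed, GGACA had the highest median beyond 3000, at 0.663 ± 0.0670, ahead of AGACT at 0.285 ± 0.0172, GGACC at 0.254 ± 0.0449 and GGACT at 0.236 ± 0.0197 (each SD, n = 2). AGACT lay above GGACC in both replicates, whereas GGACC lay above GGACT in replicate 1 and below it in replicate 2. The motif accounted for 19.4% of the variance in fraction among the sites beyond 3000 in replicate 1 and 18.8% in replicate 2, and for 21.9% and 22.2% among those up to it.

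The composition by motif was measured in replicate 2. GGACA made up 35.0% of the sites beyond 3000 (95% Wilson interval 32.9% to 37.2%) and 35.7% (34.9% to 36.6%) of those up to it. GGACC made up 18.2% (16.55% to 19.96%) beyond and 22.5% (21.8% to 23.3%) up to it. GGACT made up 26.6% (24.7% to 28.6%) against 23.9% (23.1% to 24.6%), and AGACT 20.2% (18.5% to 22.0%) against 17.9% (17.2% to 18.5%). The intervals overlapped at GGACA and, narrowly, at AGACT. They did not overlap at GGACC nor, by a margin as narrow, at GGACT. They cover counting error only, and sites on 1 transcript are not independent.

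Divided further by position, GGACA had medians of 0.742 and 0.635 from 3001 to 4000, 0.652 and 0.556 to 5000, and 0.667 and 0.545 to 7000, in replicates 1 and 2. Beyond 7000 it had 0.732 and 0.735, over 28 and 40 sites. In the 4 classes up to 3000 it had stayed between 0.689 and 0.714 in replicate 1 and between 0.647 and 0.676 in replicate 2. The classes from 4001 to 7000 were thus the lowest for this motif in each replicate, and the class beyond 7000 was not. AGACT was highest from 4001 to 5000 in both replicates, with 0.4 and 0.333 over 51 and 84 sites. GGACC was lowest beyond 7000, with 0.192 and 0.154 over 18 and 23 sites. At GGACT the classes beyond 5000 went opposite ways in the replicates, with 0.222 and 0.290 to 7000, and 0.125 and 0.286 beyond. No class was tested.

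**Figure D3:**
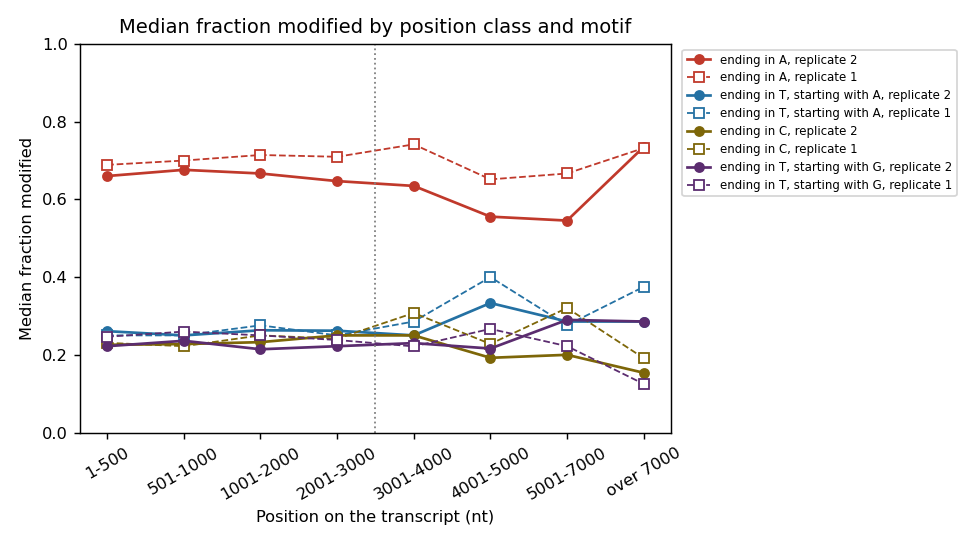
Median fraction modified (y axis) in 8 classes of position on the transcript in nt (x axis), a colour for each motif, filled circles and solid lines for replicate 2, open squares and dashed lines for replicate 1; the dotted line marks position 3000. The motif ending in A lies above the others in every class, and its replicate 2 median falls to 0.556 and 0.545 in the classes from 4001 to 7000.

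To hold the gene constant, positions on both sides of 3000 were compared within a transcript and motif. In replicate 2 there were 473 such pairs of means on 333 transcripts, and the median difference, beyond minus up to, was -0.0003 (interquartile range -0.252 to 0.224), with 234 higher and 237 lower beyond. In replicate 1 there were 273 pairs on 212 transcripts with a median of 0.0177 (-0.2 to 0.267), 143 higher, 113 lower and 17 equal. The mean over replicates was 0.0087 ± 0.0127 (SD, n = 2; exact paired permutation test, p = 1). Single transcripts therefore differed widely between their own parts, while the mean of the medians was smaller than the spread between replicates. Over the 273 pairs on positions listed in both, a comparison added after the data were seen, the median was 0.0177 in replicate 1 and 0.0374 in replicate 2, a mean of 0.0276 ± 0.0139 (SD, n = 2). With 50 or more reads in replicate 2 it was 0.0175 and 0.0186, a mean of 0.0181 ± 0.000813 (SD, n = 2). With a limit of 4000 it was below 0, at -0.0114 and -0.0339, a mean of -0.0227 ± 0.0159 (SD, n = 2). Each of these 3 means exceeded the spread between replicates, so the direction depended on the setting.

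By motif, replicate 2 had medians of 0.0057 at GGACA (185 pairs), -0.0509 at AGACT (88), -0.0075 at GGACC (80) and 0.0195 at GGACT (120). Those of replicate 1 were 0.0177 (117), 0 (41), 0.0227 (38) and 0.0284 (77). The lower AGACT value in replicate 2, with 53 of 88 pairs lower beyond, had no counterpart in replicate 1, with 18 of 41.

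**Figure D4:**
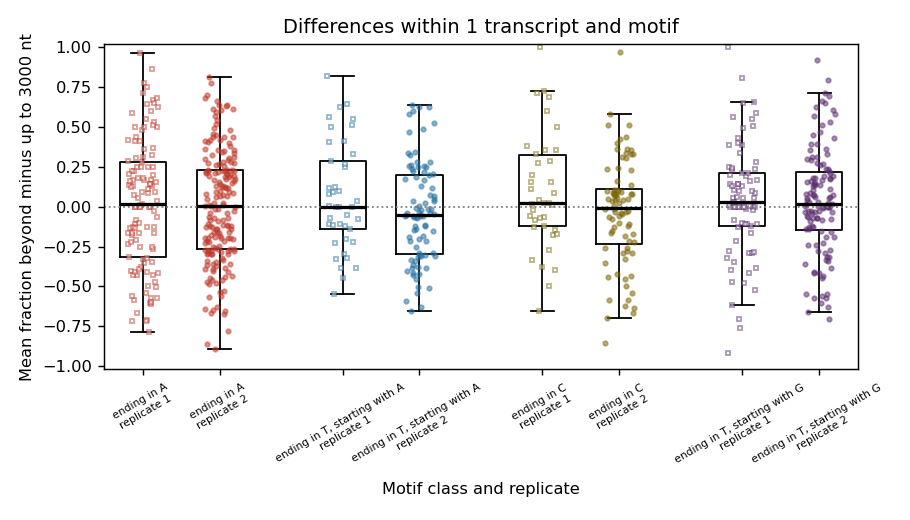
Difference in mean fraction modified, beyond minus up to position 3000 (y axis), for each transcript and motif with sites on both sides, by motif class and replicate (x axis); points are transcripts, boxes the quartiles with the median as a line, whiskers reaching 1.5 interquartile ranges at most. All 8 medians lie between -0.0509 and 0.0284, with transcripts spread to both sides.

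Among sites with at least 50 reads in replicate 2 and 20 in replicate 1, 249 lay beyond 3000. A fraction of at least 0.9 in both was seen at 23 of them, or 9.24% (95% Wilson interval 6.23% to 13.5%), against 9.59% of all 3764 such sites. Of the 23, 20 were GGACA (87.0%), 2 GGACT, 1 GGACC and none AGACT, where GGACA made up 33.7% of the 249. The highest was the GGACA at 3652 of Sf3b1, a core splicing factor gene (chromosome 1, 55024328 to 55066640), with 1 in both over 35 and 82 reads. Ap2b1, a clathrin adaptor subunit (chromosome 11, 83189850 to 83295861), followed with the GGACT at 5343, at 1 and 0.985 over 24 and 67 reads. The GGACA at 3210 of Ywhag, a 14-3-3 protein, had 1 and 0.982, and that at 3532 of Cse1l, which returns importin alpha to the cytoplasm, had 1 and 0.969. Clic4, a chloride intracellular channel gene, had 0.966 and 0.987 at 3200. All of these stood near complete modification in both replicates.

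A fraction of at most 0.1 in both was seen at 28 of the 249 sites, or 11.2% (7.90% to 15.8%), against 10.4% of all 3764. Of the 28, 13 were GGACT, 7 GGACC, 5 AGACT and 3 GGACA. The lowest was the GGACC at 3258 of Clstn1, a neuronal calsyntenin (chromosome 4, 149670925 to 149733356), with 0 over 23 reads and 0.0175 over 61. Top2b, the topoisomerase of differentiating cells (chromosome 14, 6034301 to 6104584), had 0.0345 and 0.0256 at the AGACT at 5610 over 35 and 108 reads. Low values were also found for Ncapd2, a condensin subunit, with 0 and 0.0411 at 3474, and for Ipo7, an importin, with 0.0357 and 0.0462 at 3600. The shares of near-complete and near-unmodified sites were thus close to those over all sites of that depth.

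Acly, which makes cytosolic acetyl-CoA for lipid synthesis (chromosome 11, 100367179 to 100418826; transcript ENSMUST00000107389.7), was named at both ends. Its GGACA at 3600 had 0.962 and 1 over 26 and 53 reads. Its AGACT at 4314 had 0.0417 and 0.0385 over 29 and 62 reads. Prkar1a, a regulatory subunit of protein kinase A (chromosome 11, 109540231 to 109560482), had 0 and 0.0435 at the GGACT at 3163 and 0.9 and 0.615 at the AGACT at 3308, over 22 and 85 reads.

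The AGACT of Prkar1a was also among the 3 largest differences between replicates at this depth. The largest was at the GGACA at 6818 of Ttc3, with 0.533 over 45 reads and 0.231 over 88. Coa5, a cytochrome c oxidase assembly factor, had 0.417 and 0.132 at the GGACC at 3198. With 20 or more reads in both replicates, 21 of 303 sites (6.93%) differed by more than 0.2, against 5.97% of all 4756 such sites.

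Among the sites farthest along their transcripts, the AGACT at 11366 of Map1b, given above, had 79 reads in replicate 2, and the others described here had 22 to 31. The GGACT at 14180 of Dync1h1, the dynein heavy chain (chromosome 12, 110567886 to 110633379), had 0.643 over 23 reads in replicate 2. The GGACA at 11994 of Huwe1, a ubiquitin ligase (chromosome X, 150583803 to 150718413), had 0.429 over 29 reads there. Neither was listed in replicate 1. The GGACC at 12920 of Ago2, the slicing Argonaute (chromosome 15, 72967693 to 73056784), had 0 over 6 reads and 0.0909 over 22. Phip had 0.0769 and 0.0588 at the GGACA at 10358, over 16 and 31 reads, low in both for its motif.

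The fractions at the 1308 sites beyond 3000 listed in both replicates had a Pearson's r of 0.851 and a Spearman rank correlation of 0.836 across sites, which share libraries and transcripts. Those up to 3000 had 0.892 and 0.870 over 9700 sites. Sites were then matched on replicate 1 coverage alone. With 20 to 49 reads in replicate 1 the root mean square difference was 0.114 beyond 3000 (245 sites) and 0.115 up to it (2850), and with 50 or more it was 0.0595 (58 sites) and 0.0653 (1603). Median coverage in replicate 2 was 65 and 59 reads in the first of these classes and 234.5 and 168 in the other. With 5 to 9 reads, which held 418 of the sites beyond 3000, it was 0.225 and 0.213. The median difference, replicate 2 minus replicate 1, was -0.0022 beyond 3000.

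**Figure D5:**
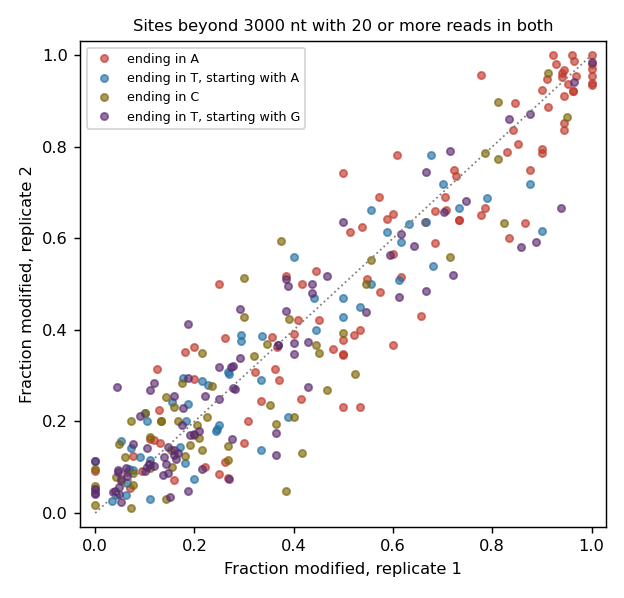
Fraction modified in replicate 1 (x axis) and replicate 2 (y axis) at the 303 sites beyond 3000 nt with 20 or more reads in both, coloured by motif; the dotted line marks equal values. The points follow the line with r = 0.936, and 21 of them lie more than 0.2 above or below it.

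At the limits of the rule, the sites just inside were position 3001 of Cul1, a ubiquitin ligase scaffold, with 0.346 and 0.369, of Col18a1 with 1 and 0.625, and of Fbxl19 with 0.75 and 0.591. Just outside were position 3000 of Ppp4r3b, with 0 and 0.176, and 2999 of Josd1, with 0.75 and 0.615, and of Papola, with 0.333 in replicate 2. At exactly 20 reads 161 sites had a median fraction of 0.375 in replicate 2, and 85 positions of the same transcripts with 19 reads had 0.308.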

How the data were processed

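Per the file headers, the authors deposited for each library a table of transcript positions with a 5-base motif, a fraction modified and a coverage, which is a count of reads. The submitters' processing notes name mm10; the base caller, aligner and modification caller are not given in the sources used here. RefSeq's GRCm38.p6 table held 755 of the member genes by symbol, and only 4.11% of these began less than 1000 bases from the deposited start, so the build of the gene coordinates is not settled and the 2 were not combined. The interval end was taken as the position. Positions without a gene name were left out, ties between transcripts went to the higher summed coverage, and the tables named minus were not used. No sites were called from counts, because the denominator of the fraction is not stated. Medians were taken in each library and averaged over both, with the SD (n = 2) and an exact two-sided paired permutation test, which cannot go below p = 0.5. Python 3.11.15, pandas 2.3.3, NumPy 2.4.6, SciPy 1.17.1 and Matplotlib 3.10.9 were used, and the computation was tested on simulated data. The text names the 12 genes with most sites (ties by summed replicate 2 coverage), the 6 highest and 6 lowest sites with 50 and 20 reads, the 3 largest differences there, the 6 farthest sites, the sites at the limits, and up to 6 genes per role list; some items that this rule names are not reported here. Other genes and single sites within these genes were chosen after their values were seen. The members and lists were chosen with earlier results of these data known. A planned comparison with coding lengths was not made, because no protein table was used here. Alternatives were the coverage minimum, the position limit, all transcripts, the replicate 1 minimum and leaving out a replicate.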

Additional observations from a re-analysis of the deposited data

How the results depend on the processing

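The numbers of sites and genes beyond the limit follow the criteria by construction: they were 8884 and 2564 without a coverage minimum, 436 and 193 with 50 reads, 4315 and 1521 beyond position 2000, and 883 and 355 beyond 4000. The correlation between replicates was 0.794 without a minimum, 0.928 with 50 reads, 0.936 with 20 reads in replicate 1 and 0.868 beyond 2000. Without a minimum, the differences at all motifs but GGACT and within transcripts were 0 in both replicates. Fractions over as few as 5 reads are coarse and their medians can tie, so these values are not read as equal levels. Beyond 4000 the differences were 0.0634 at AGACT, -0.0696 at GGACA and -0.0227 within transcripts. With 20 reads in replicate 1 the difference was -0.0765 at GGACA. That setting limits the replicate 1 values alone (-0.102), so replicate 2 kept its main value of -0.0513. Over positions listed in both, an alternative chosen after seeing the data, the difference was 0.0276 within transcripts. The cause of these shifts was not tested. The share of GGACA stayed within its interval under all alternatives run, and with all transcripts the motif and within-transcript differences stayed within 1 SD of the main values. The GGACA difference had the same sign in both replicates and exceeded their spread with all transcripts (-0.0338), with 50 reads (-0.0223), beyond 4000 and with 20 reads in replicate 1, unlike the main value, but not with a limit of 2000, over positions listed in both or without a minimum. The GGACC difference did so with a limit of 2000 alone (0.00993), and AGACT no longer did without a minimum or with 20 reads in replicate 1 (0.0059). The within-transcript difference did so above 0 with 50 reads (0.0181) and over positions listed in both, and below 0 beyond 4000. Leaving out 1 replicate gave a range for AGACT of 0.0118 to 0.0471, for GGACC of -0.0086 to 0.0489, for GGACA of -0.0513 to 0.0042, for GGACT of -0.0278 to 0.0278 and of -0.0003 to 0.0177 within transcripts; with n = 2 this says nothing about stability. No replicate block between groups could be fitted, because the samples form 1 group. Depth limits the single values of replicate 1, where 15.4% of the sites had 20 reads.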
